A study of Mus musculus with 16 samples.

Results

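The 10 cytokine genes described here were Il6, Tnf, Il1b, Il1a, Il10, Il18, Il33, Il15, Csf1 and Lif, chosen by name, and all 10 were found among the 23179 genes listed for mouse mammary adipose tissue. Total RNA was sequenced from the mammary fat pad opposite a tumor, in 16 libraries that fell into 4 groups of 4 female wild-type C57BL/6N mice (C57BL/6NCrl in the study's methods). CON-LFD mice stayed on a low-fat diet with 10% of energy from fat, and the other groups were first made obese for 15 weeks on a 60% fat diet. DIO-HFD mice stayed obese on that diet, DIO-LFD mice were moved to the low-fat diet, and DIO-VSG mice had vertical sleeve gastrectomy, the removal of part of the stomach, followed by the low-fat diet. The mice that did not have this operation, CON-LFD included, had a sham operation. All mice were 8 weeks old on arrival and carried E0771 mammary cancer cells, injected into a fat pad 7 weeks after surgery and 4 weeks before tissue was taken. No tumor-free group was compared, and the fat pad is a mixture of fat, stroma, vessels, epithelium and immune cells. Each library had an animal number of its own.

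Cytokines are secreted proteins through which immune, stromal and fat cells signal to each other. Tnf, Il1a and Il1b set off the NF-kB response, and Il6 and Lif act through receptors that share the subunit encoded by Il6st. Il18 and Il33 belong to the interleukin-1 family, Il15 sustains natural killer and memory T cells, Csf1 is the main survival factor of macrophages, and Il10 restrains inflammatory responses. In obese fat several of them are known as products of the macrophages that gather there.

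The promoters of Il6, Il1b and Csf1 are shown because these were the 3 members whose DIO-HFD and CON-LFD libraries did not overlap. Each is the 250 bases before the RefSeq transcription start, 5′ to 3′ on the coding strand, in GRCm38.p6. Capitals mark matches to letters searched on both strands: an NF-kB motif, AP-1 (TGANTCA), C/EBP (TTNNGCAA) and the TATA box (TATAAA).
Il6, chr5:30012864-30013113, plus strand: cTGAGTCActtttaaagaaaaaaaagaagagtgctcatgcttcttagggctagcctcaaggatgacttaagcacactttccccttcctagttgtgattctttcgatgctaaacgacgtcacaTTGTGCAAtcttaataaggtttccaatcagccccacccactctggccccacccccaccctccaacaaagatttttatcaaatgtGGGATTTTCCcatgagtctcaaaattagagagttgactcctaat
Il1b, chr2:129371140-129371389, minus strand: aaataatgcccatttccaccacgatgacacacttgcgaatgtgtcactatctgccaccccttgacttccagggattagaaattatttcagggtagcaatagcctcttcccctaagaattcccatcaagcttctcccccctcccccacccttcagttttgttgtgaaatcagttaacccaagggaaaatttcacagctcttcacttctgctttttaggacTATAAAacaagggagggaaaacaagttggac
Csf1, chr3:107760470-107760719, minus strand: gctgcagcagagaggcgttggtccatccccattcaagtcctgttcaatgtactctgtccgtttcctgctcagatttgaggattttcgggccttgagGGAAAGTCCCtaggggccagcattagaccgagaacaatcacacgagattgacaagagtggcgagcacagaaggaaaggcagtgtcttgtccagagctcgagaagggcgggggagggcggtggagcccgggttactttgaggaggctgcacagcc
The NF-kB match of Il6 began 44 bases before the start, its C/EBP match 128 bases before and its AP-1 match 249 bases before. Il1b held the TATA letters 31 bases before its start, and Csf1 held an NF-kB match 154 bases before its start. Of the members, 8 had an entry among the RefSeq promoters, with 9 starts since Il33 had 2. In windows reaching 50 bases past the start, the NF-kB letters were in 3 of these 9, beside 8.46% of 32851 promoters. AP-1 letters were in 3 of 9 (7.81% of all promoters), C/EBP letters in 2 (10.8%) and the TATA box in 6 (13.6%). These matches describe letters and not bound sites.

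The level of a gene in a library is given as a normalized count, its reads divided by the library's size factor. Levels of different genes are compared only per kilobase of the longest transcript. On that scale Csf1 stood first with a median over the 16 libraries of 928 (range 491 to 1603), followed by Il33 with 493 (134 to 1914) and Il18 with 238 (77.9 to 393). Il15 followed with 174 (138 to 242) and Tnf with 108 (23.3 to 261). Lif with 57.2 (33.7 to 92.8) and Il1b with 55.9 (28.9 to 172) could not be ordered, since Lif was the higher of the pair in 7 of 16 libraries. Il1a had 36.2 (6.62 to 77.3), Il10 had 17.3 (2.43 to 205) and Il6 had 2.88 (0 to 10.3). The ranges of each pair of neighbours in this order overlapped, although Il33 was above Il18, and Il10 above Il6, in 16 of 16 libraries.

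The lowest value of the deposited table, 5.3622, stood for 0 reads, and the floor was taken as 3 reads. Il6 was the member near it. It had 0 to 22 reads per library, 2 libraries were at or under 3 reads, and 5 libraries reached 10 normalized counts. Il10 was at the floor in 1 library, with 3 reads, and the other 8 members were above it in all 16.

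**Figure D1:**
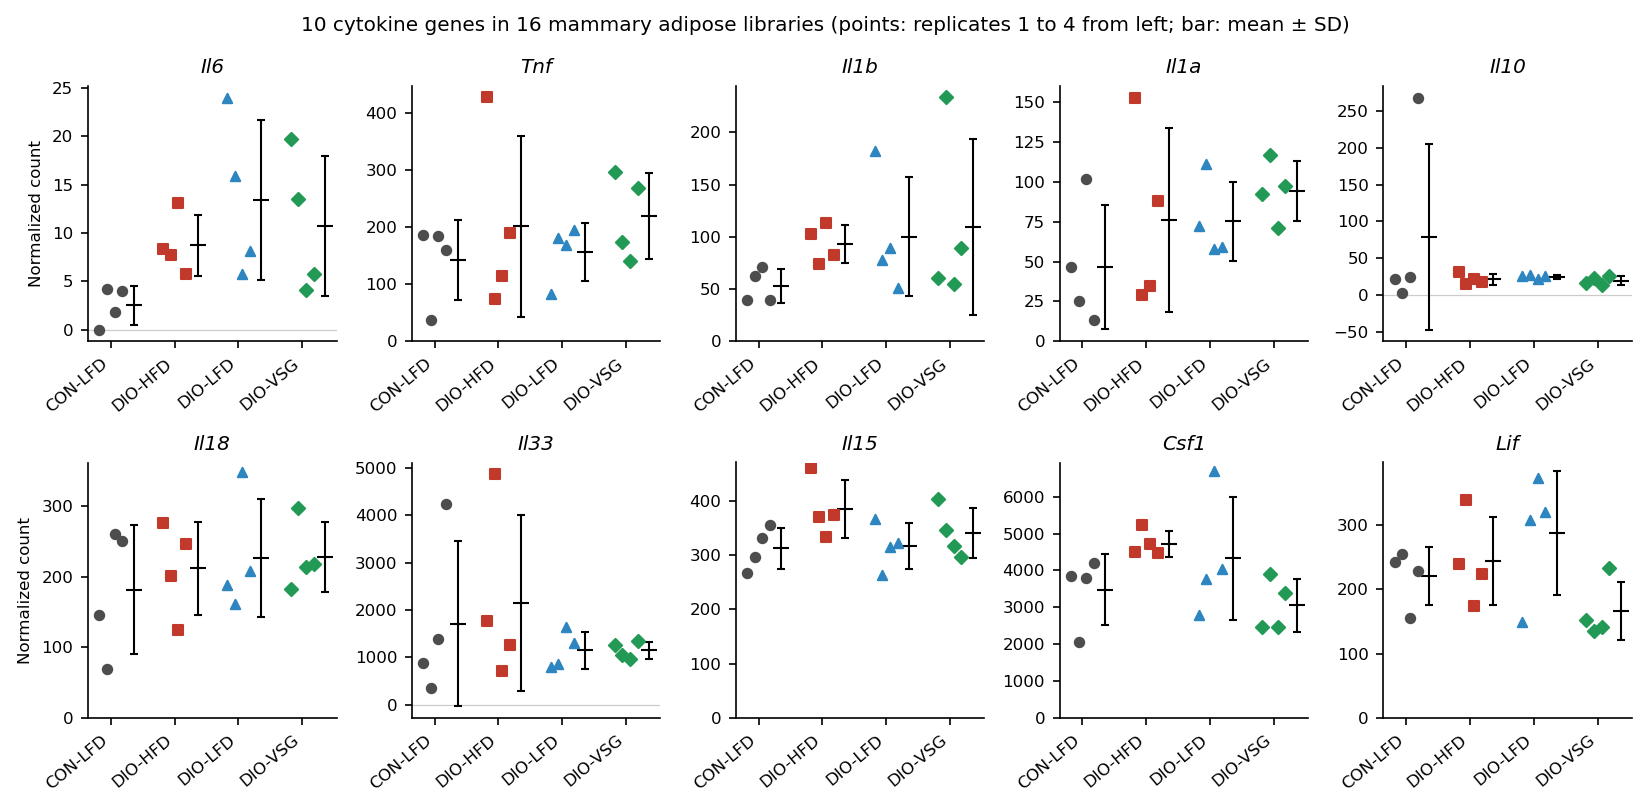
Normalized count (vertical axis, linear, 1 scale per gene) of the 10 cytokine genes in each library of the 4 groups; points are replicates 1 to 4 from left to right and bars the mean ± SD (n = 4). In Il6, Il1b and Csf1 every DIO-HFD point lies above every CON-LFD point, and Il10 has 1 CON-LFD library at 268.

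Cell content differed between libraries within groups, and these values are given before the comparisons. Adipoq and Plin1, which define adipocytes, had at least 30428 and 27815 normalized counts in every library. The summed level of 10 B cell markers was 341 to 3602 in CON-LFD replicates 2 and 4 and DIO-HFD replicates 2 and 3, called lymphoid-poor here, and 18854 to 105669 in the other 12 libraries. The 10 T cell markers summed to 916 to 2301 in these 4 libraries and to at least 8561 elsewhere. Macrophage markers summed to 143059 in CON-LFD replicate 4 and to 16506 to 69679 in the others. Neutrophil markers summed to 8770.3 in DIO-VSG replicate 2, 3020.3 in DIO-HFD replicate 1 and 2856 in DIO-LFD replicate 1, and to 395 to 1969 in the remaining 13, and Ly6g, which neutrophils bear, was at or under 3 reads in 11 of 16 libraries. Skeletal muscle markers summed to 116769 in DIO-LFD replicate 4, 26205 in CON-LFD replicate 4 and 19519 in DIO-VSG replicate 2, and to 412 to 4076 elsewhere, and keratinocyte markers to 13258 in DIO-HFD replicate 4 and to 1108 to 2755 elsewhere. In such bulk samples, fewer cells of a type and less RNA per cell cannot be told apart. In the counts of markers and other listed genes below, a higher or lower mean is that of log2(normalized count + 1). Where a library stands far above its group, the mean counts can be ordered otherwise.

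Lasting obesity was examined by setting DIO-HFD against CON-LFD. Of the 10 members, 9 had a higher mean log2 level in DIO-HFD, with a median difference of 0.46 on the log2(normalized count + 1) scale beside 0.02 over all 21218 genes tested, of which 52.7% were higher. The count was 6 to 10 of 10 with each library left out, lowest without CON-LFD replicate 2, where the median was 0.23. None of the 10 passed the threshold of an adjusted p under 0.05 in limma, which 0.0377% of all genes passed. At an unadjusted p under 0.05, 1 member was past the limit, Il6, beside 12.9% of all genes, 5.23% higher and 7.66% lower. Il6 was past it under 26 of 29 alternatives, and not without CON-LFD replicate 1, with quantile normalization or with a neutrophil score in the fit. Il6, Il1b and Csf1 were higher in every DIO-HFD library than in any CON-LFD library, 3 of 10 members, where 1.76% of all genes were higher and 3.0% lower with no overlap. When limma's library weights were used, 3 of 10 passed the adjusted threshold, Il6, Il1a and Il15, as did 4196 genes in all.

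Il6, a cytokine of the acute phase response, had normalized counts of 0, 4.24, 1.84 and 4.02 in CON-LFD and of 8.33, 7.75, 13.1 and 5.74 in DIO-HFD. The groups did not overlap, and CON-LFD replicate 1 had no read. The means were 2.53 ± 2.00 and 8.73 ± 3.12 (SD, n = 4), resting on 10 and 35 reads, a rate ratio of 3.34 (95% interval 1.62 to 7.55, counting error only). The log2 difference was 1.67 (SE 0.60, limma adjusted p = 0.27), and 1.15 without the library at 0.

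Il1b, the secreted interleukin-1 that caspase-1 cuts, was at 39.7, 62.5, 71.0 and 39.2 in CON-LFD and at 103, 74.1, 114 and 82.8 in DIO-HFD. The lowest DIO-HFD library stood just above the highest CON-LFD library. The means were 53.1 ± 16.2 and 93.3 ± 18.03 (SD, n = 4), a log2 difference of 0.83 (SE 0.44, limma adjusted p = 0.45). Of 7 neutrophil markers tested, 6 were higher too, with a median log2 difference of 1.51 and 0 of 7 at an unadjusted p under 0.05. Their summed level was 395 to 1206 in CON-LFD and 551 to 3020.3 in DIO-HFD. With a neutrophil score in the fit the Il1b difference was 0.27 (SE 0.34), and the part of these cells in it was not tested further.

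Csf1, the macrophage growth factor, was at 3850.4, 2051, 3795 and 4208 in CON-LFD and at 4495, 5231, 4708 and 4466 in DIO-HFD. All 4 DIO-HFD libraries lay above the CON-LFD libraries, and CON-LFD replicate 2 was the lowest. The means were 3476 ± 967 and 4725 ± 354 (SD, n = 4), a log2 difference of 0.49 (SE 0.26, limma adjusted p = 0.45), which was 0.26 without CON-LFD replicate 2. Macrophage markers had a higher mean log2 level in DIO-HFD for 9 of 10 genes, with a median log2 difference of 0.31 and 1 of 10 at an unadjusted p under 0.05. Their summed counts were 43888 to 68950.3 in DIO-HFD and 16506 to 143059 in CON-LFD, the highest being CON-LFD replicate 4.

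Markers of other cells are given for the same comparison. B cell markers had a higher mean in DIO-HFD for 10 of 10 genes (median 1.16) and T cell markers for 10 of 10 (median 0.54), with 0 of 20 at an unadjusted p under 0.05. Mammary epithelium markers had a lower mean for 7 of 7 genes (median -0.69, 2 at that limit), adipocyte markers for 7 of 8 (median -0.48, 0 at it) and skeletal muscle markers for 6 of 6 (median -1.88, 1 at it). Keratinocyte markers had a higher mean for 5 of 6 tested (median 1.80, 1 at the limit), with DIO-HFD replicate 4 far above the others, and endothelial markers for 5 of 6 (median 0.33, 1 at it). The median difference was 0.33 for mast cell markers (5 of 6 with a higher mean), 0.06 for stromal progenitor markers (4 of 7 with a higher mean) and 0.30 for erythroid markers (5 of 5 with a higher mean). With a B cell score in the fit the Il1a difference was 0.40 (SE 0.34) and the Tnf difference 0.11 (SE 0.40), and without the lymphoid-poor libraries they were 0.74 (SE 0.44) and 0.62 (SE 0.50). With a neutrophil score they were 0.09 (SE 0.49) and 0.27 (SE 0.64). That score holds Cxcr2, the gene most like Il1a over the 16 libraries (r = 0.970), so it carries part of the pattern of Il1a itself. The part of the epithelial, fat, muscle, skin and endothelial cells was not tested.

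Il15 was at 267, 296, 331 and 355 in CON-LFD and at 461, 371, 334 and 374 in DIO-HFD, and the groups overlapped by 1 library of each. Its log2 difference was 0.30 (SE 0.15, limma adjusted p = 0.41). It had the smallest spread of the 10 members, a coefficient of variation of 14.9% over the 16 libraries. Il1a, the interleukin-1 that stays largely inside cells, was at 46.4, 25.4, 101 and 13.1 in CON-LFD and at 153, 28.8, 34.9 and 87.7 in DIO-HFD. Tnf was at 187, 38.2, 184 and 161 in CON-LFD and at 428, 74.1, 115 and 191 in DIO-HFD. Both groups held low and high libraries of Il1a and Tnf, and the log2 differences were 0.75 (SE 0.58) and 0.42 (SE 0.57). The Il1a difference was 0.29 without CON-LFD replicate 4, 0.32 without DIO-HFD replicate 1 and 1.25 without CON-LFD replicate 3. The Tnf difference was -0.12 without CON-LFD replicate 2, the lowest in B cell markers.

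Il18, which primes interferon production by T cells, was at 146, 68.9, 260.1 and 251 in CON-LFD and at 276, 201, 124 and 246 in DIO-HFD, a log2 difference of 0.34 (SE 0.39). Il33, an alarm signal released by damaged stromal cells, was at 872, 341, 1377 and 4242 in CON-LFD and at 1768, 4868, 709 and 1254 in DIO-HFD, a difference of 0.53 (SE 0.65). The groups overlapped in both genes, and Il33 spanned 14.3-fold over the 16 libraries. Without CON-LFD replicate 2 the Il18 difference was -0.06 and the Il33 difference -0.05, and without CON-LFD replicate 4 that of Il33 was 1.16. Lif, which like Il6 signals through STAT3, was at 243, 255, 155 and 228 in CON-LFD and at 239.7, 339, 174 and 225 in DIO-HFD, a difference of 0.13 (SE 0.29). Il10 was at 21.0, 3.18, 23.98 and 268 in CON-LFD and at 31.5, 14.4, 21.83 and 18.03 in DIO-HFD. It was the member with a lower mean log2 level in DIO-HFD, by -0.38 (SE 0.85), and CON-LFD replicate 4, the library with the most macrophage marker RNA, set that sign: without it the difference was 0.71.

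**Figure D2:**
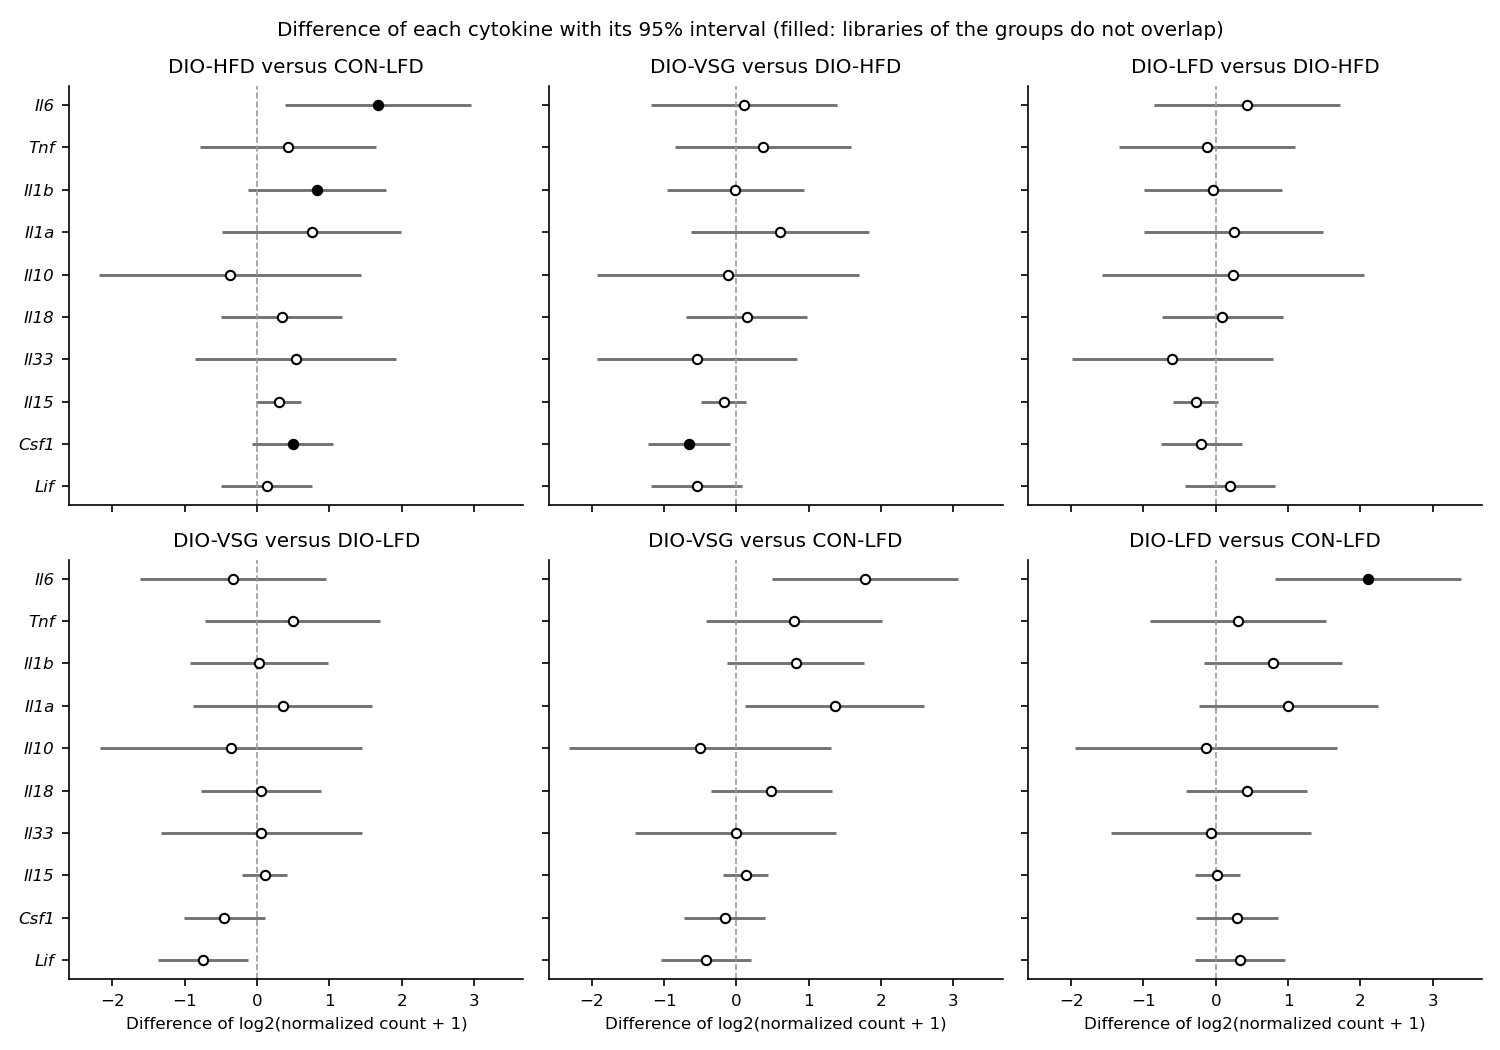
Difference of mean log2(normalized count + 1) (horizontal axis) of each cytokine in the 6 comparisons, first group minus second, with its 95% interval from limma; filled points mark groups whose libraries do not overlap. In DIO-HFD versus CON-LFD 9 of 10 points lie right of 0 (6 of 10 without CON-LFD replicate 2), and the only intervals that leave out 0 are those of Il6 against CON-LFD in 3 comparisons, Il1a in DIO-VSG versus CON-LFD, Csf1 in DIO-VSG versus DIO-HFD and Lif in DIO-VSG versus DIO-LFD.

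Surgery with the low-fat diet was examined by setting DIO-VSG against the same DIO-HFD libraries. The median log2 difference of the members was -0.07 beside 0.02 over all genes, and 4 of 10 were higher (3 to 6 with each library left out). None of 10 passed the adjusted threshold (limma, 0.00% of all genes), and 1 was past an unadjusted p under 0.05 (13.2% of all genes, 5.05% higher and 8.12% lower). The same member, Csf1, past that limit under 23 of 29 alternatives, was the 1 of 10 whose groups did not overlap, where 2.37% of all genes were higher and 4.22% lower with no overlap. With library weights Csf1 passed the adjusted threshold, as did 3739 genes in all. Csf1 was not past the unadjusted limit with a macrophage or neutrophil score, without the lymphoid-poor libraries, or when DIO-HFD replicate 2, DIO-VSG replicate 1 or DIO-VSG replicate 3 was left out.

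Csf1 was at 2468, 3903, 2460.2 and 3395 in DIO-VSG, so every DIO-VSG library was lower than every DIO-HFD library. The DIO-VSG mean was 3056 ± 715 (SD, n = 4), 0.647 of the DIO-HFD mean. The log2 difference was -0.65 (SE 0.26, limma adjusted p = 0.33), with a 95% interval of -1.22 to -0.09. Stromal progenitor markers were lower in DIO-VSG for 7 of 7 genes (median log2 difference -0.76, 1 at an unadjusted p under 0.05), and macrophage markers for 9 of 10 (median -0.72, 1 of 10). Endothelial markers had a lower mean for 6 of 6 genes (median -0.58), with 3 at an unadjusted p under 0.05 and 2 without overlap, and keratinocyte markers for 6 of 6 tested (median -1.75), with 1 at that limit and 2 without overlap, beside the high DIO-HFD replicate 4. The median difference was 1.08 for neutrophil markers (7 of 7 with a higher mean), -0.43 for mast cell markers (0 of 6 with a higher mean, 1 lower at an unadjusted p under 0.05, 1 lower without overlap), 0.46 for mammary epithelium markers (5 of 7 with a higher mean, 1 higher at an unadjusted p under 0.05, 1 higher without overlap), 1.85 for skeletal muscle markers (5 of 6 with a higher mean, 1 higher at an unadjusted p under 0.05, 1 higher without overlap), -0.01 for adipocyte markers (4 of 8 with a higher mean, 1 lower at an unadjusted p under 0.05) and -0.24 for erythroid markers (0 of 5 with a higher mean). Stromal markers summed to 67431 to 186376 in DIO-VSG and to 130669 to 233892 in DIO-HFD, macrophage markers to 30313 to 69679 and 43888 to 68950.3, and endothelial markers to 36029.9 to 36921 and 41905 to 68421. With a macrophage score in the fit the Csf1 difference was -0.39 (SE 0.23) and with a neutrophil score -0.62 (SE 0.29), and the parts of stromal, endothelial, mast, epithelial, muscle and skin cells were not tested. Without the lymphoid-poor libraries all 4 DIO-VSG libraries were still lower than both DIO-HFD libraries that remained, as in 8.50% of all genes, with a difference of -0.58 (SE 0.30).

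Il34, the other ligand of the Csf1 receptor, had a mean of 540.4 ± 143 in DIO-VSG and 999.9 ± 286 in DIO-HFD (SD, n = 4). Its log2 difference was -0.86 (SE 0.25, limma adjusted p = 0.26), and the groups overlapped. Lif was at 152, 136, 142 and 233 in DIO-VSG, lower in 3 libraries than in any DIO-HFD library, a log2 difference of -0.55 (SE 0.29, limma adjusted p = 0.40).

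Il6, at 19.7, 13.5, 4.11 and 5.72 in DIO-VSG, spread around its DIO-HFD levels, a difference of 0.10 (SE 0.60). Il1b, at 60.2, 234, 54.4 and 89.6, differed by -0.01 (SE 0.44), and its highest library was the one with the most neutrophil marker RNA. The Il1b difference was -0.46 without that library, DIO-VSG replicate 2, and 0.23 without DIO-VSG replicate 3. Il1a, at 92.3, 117, 70.8 and 97.2, was higher by 0.60 (SE 0.58) and Tnf, at 297, 174, 141 and 269.7, by 0.37 (SE 0.57), and both overlapped with DIO-HFD. The Il1a difference was 0.25 without DIO-HFD replicate 2 and 1.04 without DIO-HFD replicate 1. Without the same libraries the Tnf difference was -0.005 and 0.83. Without the lymphoid-poor libraries the Il1a and Tnf differences were -0.31 (SE 0.38) and -0.44 (SE 0.43). All 10 B cell and all 10 T cell markers had a higher mean in DIO-VSG, by medians of 2.78 and 2.20, with 0 of 20 at an unadjusted p under 0.05.

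The remaining 4 members overlapped between DIO-VSG and DIO-HFD. Il15, at 403, 346, 317 and 297, differed by -0.17 (SE 0.15), and Il18, at 183, 298, 213 and 217, by 0.14 (SE 0.39). Il33, at 1254, 1049, 957 and 1349, lay within the DIO-HFD range and differed by -0.54 (SE 0.65), and by -0.03 without DIO-HFD replicate 2. Il10, at 15.6, 23.4, 13.3 and 25.7, differed by -0.12 (SE 0.85).

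Diet change without gastrectomy was examined by setting DIO-LFD against DIO-HFD. The members' median log2 difference was 0.03 beside 0.01 over all genes, and 5 of 10 were higher (4 to 7 with each library left out). None of 10 passed the adjusted threshold (limma, 0.00% of all genes), and 0 had an unadjusted p under 0.05 (8.53% of all genes, 5.37% higher and 3.16% lower). In 0 of 10 did the groups separate, where 3.01% of all genes were higher and 1.50% lower with no overlap. Il15 had the smallest p, at 367, 263, 315 and 323 in DIO-LFD, with a log2 difference of -0.28 (SE 0.15, limma adjusted p = 0.66). Csf1, at 2782, 3774, 6695 and 4046, differed by -0.20 (SE 0.26), with a 95% interval of -0.76 to 0.36. Its difference was -0.43 without DIO-LFD replicate 3 and -0.01 without DIO-LFD replicate 1. Tnf, at 83.0, 182, 169 and 196, differed by -0.12 (SE 0.57), with an interval of -1.33 to 1.09, and by -0.93 (SE 0.43) without the lymphoid-poor libraries. These intervals allowed sizeable changes either way.

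Il6 was at 24.02, 15.9, 5.72 and 8.17 in DIO-LFD, and Il1b at 182, 77.4, 89.6 and 51.1, with differences of 0.44 (SE 0.60) and -0.04 (SE 0.44). The highest value of each came from DIO-LFD replicate 1, the library with 461509.8 summed normalized counts of 5 erythroid markers, beside 18104 to 55718 elsewhere, and with the highest neutrophil marker sum of its group, 2856 beside 809 to 1079. Without it the differences were 0.11 and -0.37. Il1a, at 72.1, 111, 58.1 and 59.3, and Il18, at 188, 161, 348 and 207, differed by 0.25 (SE 0.58) and 0.09 (SE 0.39). The Il1a difference was -0.67 (SE 0.38) without the lymphoid-poor libraries, -0.18 with a B cell score in the fit, and -0.10 to 0.69 with each library left out. Il33, at 802, 849, 1636 and 1295, differed by -0.60 (SE 0.65), and -0.09 without DIO-HFD replicate 2, its highest library. Il10 was at 25.1, 26.8, 21.0 and 25.5, a difference of 0.24 (SE 0.85). Lif, at 149.6, 307, 374 and 321, differed by 0.20 (SE 0.29), by 0.05 without DIO-LFD replicate 3 and by 0.49 without DIO-LFD replicate 1.

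Beside these members, mammary epithelium markers had a higher mean in DIO-LFD than in DIO-HFD for 5 of 7 genes, each of the 5 at an unadjusted p under 0.05 (median log2 difference 1.05). B cell markers had a higher mean for 10 of 10 (median 1.54), T cell markers for 10 of 10 (0.83), adipocyte markers for 7 of 8 (0.33) and skeletal muscle markers for 6 of 6 (1.99, 1 at that limit and 1 without overlap), whose sum was 116769 in DIO-LFD replicate 4 and 1362 to 1784 in the other 3. Stromal progenitor markers had a lower mean for 7 of 7 genes (median -0.62), macrophage markers for 8 of 10 (-0.05), keratinocyte markers for 5 of 6 (-0.88, 1 at that limit) and endothelial markers for 5 of 6 (-0.11). The median difference was 0.06 for neutrophil markers (4 of 7 with a higher mean), -0.25 for mast cell markers (1 of 6 with a higher mean) and 0.61 for erythroid markers (5 of 5 with a higher mean). The part of the epithelial, stromal, fat, muscle, skin and endothelial cells in the members' differences was not tested.

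Next, DIO-VSG was set against DIO-LFD, the contrast of surgery with a sham operation on the same final diet. Of the members 6 of 10 were higher in DIO-VSG, with a median log2 difference of 0.04 beside -0.02 over all genes, and 3 to 6 were higher with each library left out. None of 10 passed the adjusted threshold (limma, 0.00% of all genes), and 1 had an unadjusted p under 0.05 (9.71% of all genes, 4.30% higher and 5.41% lower). No member separated the groups, where 12.9% of all genes were higher and 5.83% lower with no overlap. The member past the unadjusted limit was Lif, and 3 of its 4 DIO-LFD libraries lay above all DIO-VSG libraries. It was past it under 23 of 29 alternatives, but not with a neutrophil score, nor when any of DIO-VSG replicates 2 and 3 and DIO-LFD replicates 2, 3 and 4 was left out. DIO-VSG had a mean of 166 ± 45.1 and DIO-LFD one of 288 ± 96.5 (SD, n = 4). The log2 difference was -0.75 (SE 0.29, limma adjusted p = 0.51). Csf1 differed by -0.46 (SE 0.26), and by -0.22 without DIO-LFD replicate 3. All 10 B cell and all 10 T cell markers were higher in every DIO-VSG than in any DIO-LFD library, and neutrophil markers had a higher mean for 7 of 7 genes (median log2 difference 0.94, 1 higher at an unadjusted p under 0.05). Macrophage markers had a lower mean in DIO-VSG for 9 of 10 genes (median -0.68), adipocyte markers for 8 of 8 (-0.42), stromal progenitor markers for 6 of 7 (-0.29) and mammary epithelium markers for 7 of 7 (-0.38). Endothelial markers had a lower mean for 6 of 6 (median -0.58), with 2 at an unadjusted p under 0.05 and 2 without overlap, and keratinocyte markers for 5 of 6 (median -0.71), with 2 at that limit and 2 without overlap. The median difference was -0.14 for mast cell markers (2 of 6 with a higher mean, 1 lower at an unadjusted p under 0.05, 1 lower without overlap), -0.21 for skeletal muscle markers (1 of 6 with a higher mean) and -0.85 for erythroid markers (0 of 5 with a higher mean). With a macrophage score in the fit the Lif and Csf1 differences were -0.77 (SE 0.32) and -0.25 (SE 0.22), and the part of the fat, stromal, epithelial, endothelial, skin and mast cells was not tested.

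Both groups moved to the low-fat diet after obesity were also set against CON-LFD, whose libraries are shared by these comparisons and that of DIO-HFD. In DIO-LFD the lowest Il6 library, 5.72, was above the highest CON-LFD library, 4.24, 1 of 10 members, where 1.73% of all genes were higher and 1.81% lower with no overlap. The DIO-LFD mean was 13.4 ± 8.27 (SD, n = 4), with 52 reads against 10, a rate ratio of 5.17 (95% interval 2.60 to 11.4, counting error only). The log2 difference was 2.11 (SE 0.60, limma adjusted p = 0.51). B cell markers also had a higher mean in DIO-LFD than in CON-LFD for 10 of 10 genes (median 2.73), T cell markers for 10 of 10 (1.25), neutrophil markers for 7 of 7 (1.26) and macrophage markers for 9 of 10 (0.15), with 0 of these at an unadjusted p under 0.05. The median difference was -0.54 for stromal progenitor markers (1 of 7 with a higher mean), -0.11 for adipocyte markers (2 of 8 with a higher mean), 0.25 for endothelial markers (5 of 6 with a higher mean), 0.36 for mammary epithelium markers (4 of 7 with a higher mean), 0.76 for keratinocyte markers (6 of 6 with a higher mean), 0.06 for mast cell markers (4 of 6 with a higher mean), -0.10 for skeletal muscle markers (2 of 6 with a higher mean) and 0.88 for erythroid markers (5 of 5 with a higher mean). Skeletal muscle markers summed to 116769 in DIO-LFD replicate 4 and to 26205 in CON-LFD replicate 4, each far above the rest of its group. With a B cell score in the fit the Il6 difference was 2.56 (SE 0.60), and with a neutrophil score 1.86 (SE 0.66). Il6 was the 1 member of 10 with an unadjusted p under 0.05 (6.26% of all genes, 3.23% higher and 3.03% lower), under 29 of 29 alternatives, and 0 of 10 passed the adjusted threshold (0.00471% of all genes). The median member difference was 0.32 beside 0.02 over all genes, and 0.04 without CON-LFD replicate 2.

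In DIO-VSG relative to CON-LFD, Il6 had a mean of 10.8 ± 7.24 (SD, n = 4). Its log2 difference was 1.78 (SE 0.60, limma adjusted p = 0.27), and the lowest DIO-VSG library, 4.11, was under the highest CON-LFD library. Il1a had means of 94.3 ± 18.9 and 46.6 ± 39.1 (SD, n = 4). Its log2 difference was 1.36 (SE 0.58, limma adjusted p = 0.27), and CON-LFD replicate 3 lay within the DIO-VSG range. These were the 2 of 10 members past an unadjusted p under 0.05 (17.8% of all genes, 10.2% higher and 7.55% lower), Il6 under 27 of 29 alternatives and Il1a under 20 of 29 alternatives, and 0 of 10 passed the adjusted threshold (limma, 0.00% of all genes). Il6 lost it with quantile normalization and with a neutrophil score, and Il1a with each of the 3 cell scores, without the lymphoid-poor libraries, and when any of CON-LFD replicates 2 and 4 and DIO-VSG replicates 1, 2 and 4 was left out. No member separated the groups, where 2.59% of all genes were higher and 4.43% lower with no overlap. With library weights both passed the adjusted threshold, as did 4226 genes in all.

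Lymphoid and neutrophil markers were higher in the same comparison. At an unadjusted p under 0.05 stood 10 of 10 B cell markers (median log2 difference 3.95), 8 of 10 T cell markers (median 2.70) and 5 of 7 neutrophil markers (median 2.83), with 0 past the adjusted threshold. Adipocyte markers had a lower mean in DIO-VSG than in CON-LFD for 8 of 8 genes (median -0.53) and stromal progenitor markers for 7 of 7 (median -0.83), each with 1 gene lower without overlap. The median difference was -0.41 for macrophage markers (2 of 10 with a higher mean), -0.24 for endothelial markers (1 of 6 with a higher mean), -0.24 for mammary epithelium markers (3 of 7 with a higher mean, 1 lower at an unadjusted p under 0.05, 1 lower without overlap), -0.18 for keratinocyte markers (2 of 6 with a higher mean, 1 lower at an unadjusted p under 0.05, 1 higher without overlap, 1 lower without overlap), -0.07 for mast cell markers (1 of 6 with a higher mean, 1 lower at an unadjusted p under 0.05, 1 lower without overlap), -0.19 for skeletal muscle markers (2 of 6 with a higher mean) and 0.07 for erythroid markers (3 of 5 with a higher mean). Without the lymphoid-poor libraries the Il1a difference was 0.43 (SE 0.38) and the Il6 difference 2.58 (SE 0.71), and Il6 then lay higher in every DIO-VSG than in both CON-LFD libraries, as in 4.81% of all genes. With a B cell score in the fit the Il1a difference was 0.21 (SE 0.40).

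**Figure D3:**
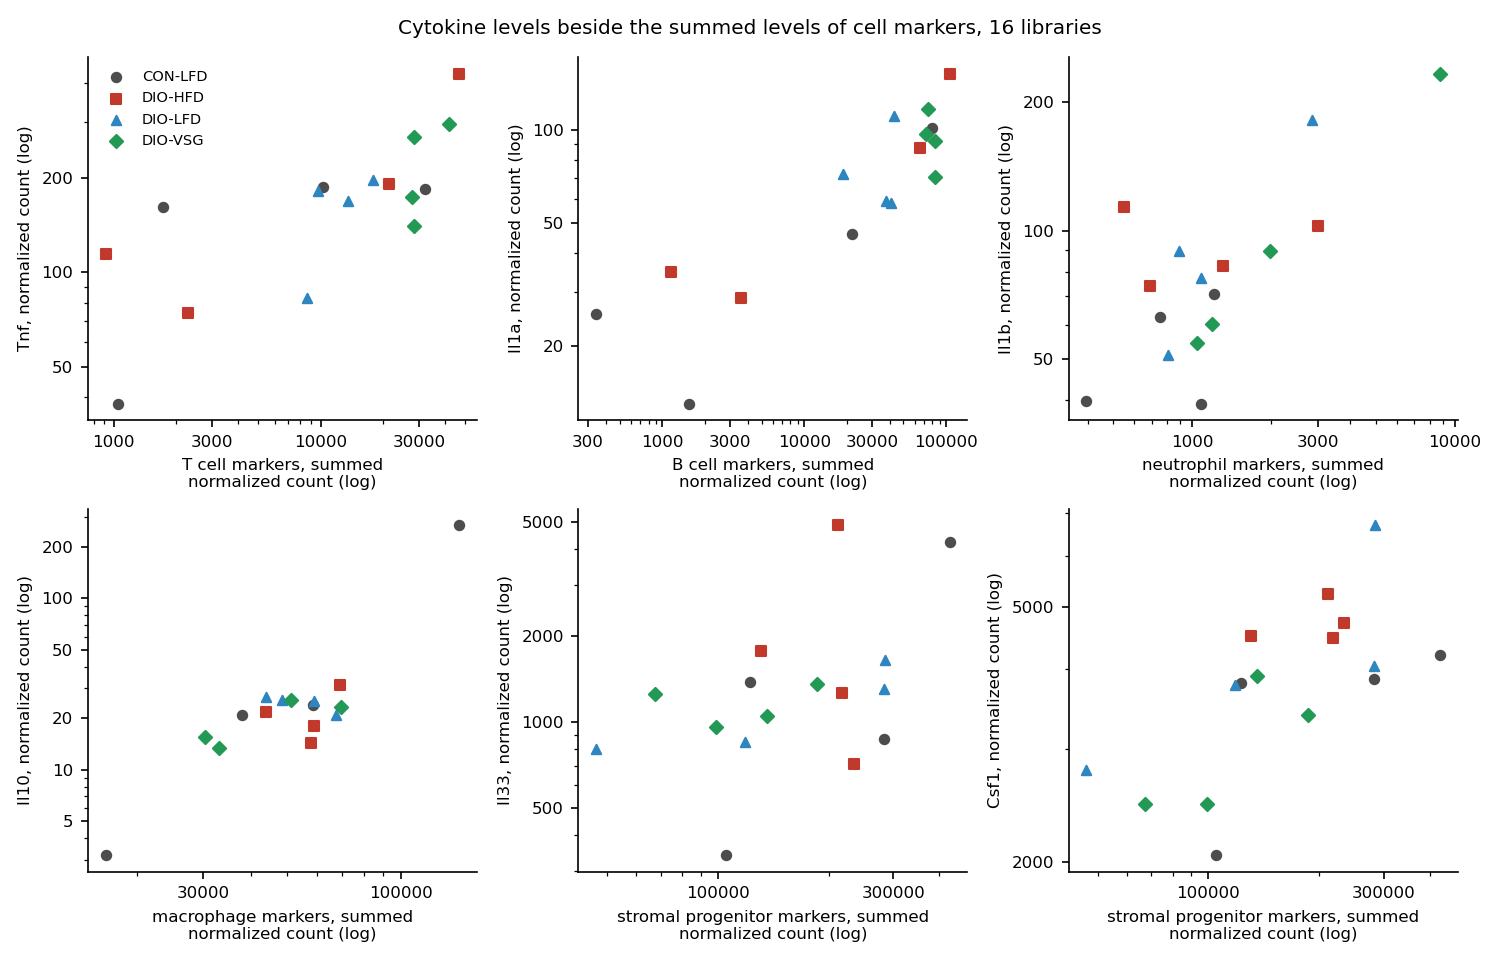
Normalized count of 6 cytokines (vertical axis, log scale) against the summed normalized count of a cell marker list (horizontal axis, log scale) in the 16 libraries, coloured by group. The 4 libraries lowest in B cell markers are the 4 lowest in Il1a, Il1b is highest in the library with the most neutrophil marker RNA, and Il10 is highest and lowest where macrophage markers are.

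The members varied with lymphoid content in different ways. Il1a was at 13.1 to 34.9 in the 4 lymphoid-poor libraries and at 46.4 to 153 in the other 12, so these 4 were its lowest. Tnf had medians of 94.4 and 186, with 2 of the 4 under all others, and Il18 had medians of 163 and 215. Csf1, with medians of 4458 and 3823, and Lif, with 242 and 229, had the higher median in the lymphoid-poor libraries. Il33 held both its lowest value, 341, and its highest, 4868, among these 4.

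For the 8 members with at least 10 normalized counts in every library, the 3 genes most alike over the 16 libraries were found by Pearson correlation of log2(normalized count + 1). These are descriptions over libraries that share their cell content and group structure. Il1a was most like Cxcr2 (r = 0.970), a chemokine receptor known from neutrophils, Gm12735 (0.966) and Helz2 (0.955). Cxcr2 is 1 of the 8 genes of the neutrophil list and score. Its median was 344 normalized counts, and that of Ly6g, of the same list, 1.98. The neutrophil sum was 395 in CON-LFD replicate 1 and 1082 in CON-LFD replicate 4, where Il1a was at 46.4 and 13.1. Tnf was most like Pfn1 (0.926), an actin-binding protein, Rgs19 (0.913) and Ptpn7 (0.906). Il1b was most like Trem3 (0.905), Chil3 (0.893) and Mmp8 (0.878), the neutrophil collagenase. Il18 was most like Fcgr2b (0.930), the inhibitory antibody receptor, Themis2 (0.930) and P2ry12 (0.917).

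Csf1 was most like Pkd1l2 (0.920), Pdgfra (0.914), the growth factor receptor that marks stromal progenitors, and Axl (0.898). Il33 was most like Rasgrp4 (0.869), Klf3 (0.864) and Nlrp1b (0.850). Il15 was most like Slc35d2 (0.854), Cbfa2t3 (0.852) and Cnppd1 (0.847), and Lif most like R74862 (0.880), Tgfb3 (0.839) and Brsk1 (0.838).

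All 16 receptor genes listed for these cytokines were tested. In DIO-HFD relative to CON-LFD, 14 of 16 had a higher mean, and the median log2 difference was 0.39. At an unadjusted p under 0.05, 3 were higher and 1 lower, beside 5.23% and 7.66% of all genes, with 0 of 16 past the adjusted threshold. The lower one was Il15ra, which presents Il15 to neighbouring cells. It had means of 3165 ± 584 in CON-LFD and 2157 ± 77.6 in DIO-HFD (SD, n = 4), with no overlap and a log2 difference of -0.53 (SE 0.19, limma adjusted p = 0.27), while the mean of Il15 itself was higher. Il15ra was the 1 of 16 lower with no overlap, beside 3.0% of all genes. Il15ra was also higher than in DIO-HFD, without overlap, in DIO-VSG, by 0.45 (SE 0.19, limma adjusted p = 0.35), and in DIO-LFD, by 0.49 (SE 0.19, limma adjusted p = 0.50). These 3 comparisons share the DIO-HFD libraries. Without overlap, 2.37% of all genes were higher in DIO-VSG than in DIO-HFD, and 3.01% in DIO-LFD. In DIO-VSG relative to DIO-HFD, 7 of 16 receptors had a higher mean, and Il6st, the subunit shared by the Il6 and Lif receptors, was lower without overlap, by -0.22 (SE 0.13, limma adjusted p = 0.44), where 4.22% of all genes were lower without overlap. In DIO-LFD relative to DIO-HFD, 6 of 16 had a higher mean, and Il10rb, the second subunit of the Il10 receptor, was lower without overlap, by -0.33 (SE 0.14, limma adjusted p = 0.54), where 1.50% of all genes were lower without overlap.

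Il1r1, the signalling receptor of both interleukin-1 forms, had means of 3089 ± 447 in DIO-HFD and 2462 ± 441 in CON-LFD (SD, n = 4), a log2 difference of 0.33 (SE 0.14, limma adjusted p = 0.36). Tnfrsf1b, the second receptor of Tnf, had means of 4274 ± 1528 and 2808 ± 1335 (SD, n = 4), a difference of 0.68 (SE 0.31, limma adjusted p = 0.38). Both overlapped between the groups. Tnfrsf1a, the other Tnf receptor, was lower in DIO-VSG than in DIO-LFD with no overlap, beside 5.83% of all genes. Its means were 5762 ± 389 against 8178 ± 2053 (SD, n = 4), a difference of -0.48 (SE 0.19, limma adjusted p = 0.51). In the other direction Il10ra, Il18r1, Il2rg and Il2rb, 4 of 16 receptors, were higher in every DIO-VSG than in any DIO-LFD library, beside 12.9% of all genes, with log2 differences of 0.79 to 1.01 and 0 of 4 at an unadjusted p under 0.05. All 10 B cell and all 10 T cell markers were so too, with median log2 differences of 1.22 and 1.42. The part of lymphoid cells in this and the later lists of these 2 groups was not tested. Between DIO-VSG and CON-LFD, 4 of 16 receptors were higher at an unadjusted p under 0.05, beside 10.2% of all genes, led by Il18rap, a subunit of the Il18 receptor, with a difference of 1.79 (SE 0.57, limma adjusted p = 0.27).

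Of 5 antagonists and decoys, 0 passed the adjusted threshold in any of the 6 comparisons. Sigirr, which dampens interleukin-1 family receptors, was the 1 of 5 with an unadjusted p under 0.05, in DIO-VSG relative to CON-LFD, beside 17.8% of all genes. Its difference was 0.83 (SE 0.27, limma adjusted p = 0.27). Il1rn, which blocks the receptor of Il1a and Il1b, had means of 256 ± 208 in DIO-HFD, 117 ± 60.3 in CON-LFD and 114 ± 58.5 in DIO-VSG (SD, n = 4). The log2 ratio of Il1b to Il1rn was -1.05 ± 1.02 in CON-LFD, -1.16 ± 0.94 in DIO-HFD, -0.40 ± 0.71 in DIO-LFD and -0.18 ± 0.36 in DIO-VSG (SD, n = 4). The widest gap of that ratio, DIO-VSG over DIO-HFD, was 0.98 (exact two-sided permutation p = 0.114, where 0.0286 is the smallest that 4 against 4 libraries allow). Without DIO-HFD replicate 3, whose Il1rn level was 559.9, that gap was 0.60 and the DIO-HFD mean of Il1rn 155. The log2 ratio of Il1a to Il1rn was -1.56 ± 1.62 in CON-LFD, -1.75 ± 2.00 in DIO-HFD, -0.70 ± 0.27 in DIO-LFD and -0.15 ± 0.51 in DIO-VSG (SD, n = 4). Its gap of DIO-VSG over DIO-HFD was 1.60 (exact permutation p = 0.286), and 0.86 without DIO-HFD replicate 3. That over CON-LFD was 1.41 (exact permutation p = 0.0857), and 0.64 without CON-LFD replicate 4. After Benjamini-Hochberg adjustment over the 24 comparisons of 4 ratios, the smallest p of these exact tests was 0.738. The log2 ratio of Il18 to its binding protein Il18bp had group means between -1.41 ± 0.11 in DIO-VSG and -1.17 ± 0.37 in DIO-HFD (SD, n = 4), and that of Csf1 to Il34 between 1.88 ± 0.59 in CON-LFD and 2.50 ± 0.13 in DIO-VSG.

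Among 8 genes for processing and release, 0 passed the adjusted threshold in any comparison. Rhbdf2, which carries the Tnf-cutting enzyme to the surface, had means of 1825 ± 276 in DIO-HFD and 1463 ± 394 in CON-LFD (SD, n = 4), a difference of 0.34 (SE 0.15, limma adjusted p = 0.37). Casp1, which cuts Il1b and Il18, had means of 1241 ± 87.9 in DIO-VSG and 898 ± 306 in CON-LFD (SD, n = 4), a difference of 0.54 (SE 0.24, limma adjusted p = 0.27). Nlrp3, the sensor that activates it, had means of 204 ± 74.0 in DIO-LFD and 84.1 ± 54.0 in CON-LFD (SD, n = 4), a difference of 1.43 (SE 0.51, limma adjusted p = 0.64). Each was the only gene of the 8 with an unadjusted p under 0.05 in its comparison, beside 12.9%, 17.8% and 6.26% of all genes, in that order. Each overlapped between the groups. Without overlap, Casp1, Pycard and Gsdmd were higher in DIO-VSG than in DIO-LFD, 3 of 8 beside 12.9% of all genes, and Adam10 was higher in DIO-VSG than in DIO-HFD, 1 of 8 beside 2.37%.

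Of 11 genes known to respond to these cytokines, 10 had a higher mean in DIO-HFD than in CON-LFD, with a median log2 difference of 0.30. At an unadjusted p under 0.05, 2 of 11 were higher, beside 5.23% of all genes, and 0 passed the adjusted threshold. Socs3, the feedback inhibitor that Il6 signalling induces, was at 834, 941, 1333 and 851 in CON-LFD and at 1738, 1704, 1315 and 1186 in DIO-HFD. CON-LFD replicate 3 lay within the DIO-HFD range, and the difference was 0.59 (SE 0.22, limma adjusted p = 0.28). Socs3 was also higher than in CON-LFD in DIO-VSG, by 0.71 (SE 0.22, limma adjusted p = 0.27), and in DIO-LFD, by 0.68 (SE 0.22, limma adjusted p = 0.59). Ccl2, which attracts monocytes, had means of 598 ± 528 in DIO-HFD and 161 ± 82.6 in CON-LFD (SD, n = 4), a difference of 1.55 (SE 0.67, limma adjusted p = 0.36). Ptgs2, the inducible prostaglandin synthase, had means of 25.5 ± 13.0 in DIO-VSG and 63.1 ± 29.1 in DIO-HFD (SD, n = 4), a difference of -1.26 (SE 0.54, limma adjusted p = 0.35), and DIO-VSG differed from DIO-LFD by -1.26 (SE 0.54, limma adjusted p = 0.51). Tnfaip3 and Icam1, 2 of 11, were higher in every DIO-VSG than in any DIO-LFD library, beside 12.9% of all genes. Between DIO-VSG and CON-LFD, Socs1 and Tnfaip3 were the other 2 of the 3 response genes, of 11, higher at an unadjusted p under 0.05, beside 10.2% of all genes.

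Of 26 other cytokines, 24 were listed and 23 tested, and 0 passed the adjusted threshold in any of the 6 comparisons. In DIO-HFD relative to CON-LFD, 17 of 23 had a higher mean, the median log2 difference was 0.21, and 1, beside 12.9% of all genes, was past an unadjusted p under 0.05. This was Ctf1, cardiotrophin, with means of 229 ± 78.4 and 381 ± 103 (SD, n = 4), a difference of -0.76 (SE 0.26, limma adjusted p = 0.26). Between DIO-VSG and CON-LFD, 7 were higher and 4 lower at that limit, beside 10.2% and 7.55% of all genes. Among them Osm, a relative of Il6 and Lif, had means of 177 ± 22.2 and 60.7 ± 62.1 (SD, n = 4), with no overlap and a difference of 2.24 (SE 0.70, limma adjusted p = 0.27). Without overlap, 1 of 23 was higher and 1 of 23 lower, beside 2.59% and 4.43% of all genes. Between DIO-VSG and DIO-LFD, 10 of 23 were higher in every DIO-VSG library, beside 12.9% of all genes, 0 were lower without overlap, and the median log2 difference over the 23 was 0.45. These were Il7, Il12a, Il12b, Il16, Clcf1, Tnfsf13b, Osm, Tgfb1, Lta and Ltb, with differences of 0.28 to 1.33 and 0 of 10 at an unadjusted p under 0.05. All 10 B cell and all 10 T cell markers separated these groups too, and the part of lymphoid cells in these differences was not tested. Csf3, the neutrophil growth factor, had means of 50.5 ± 13.6 in DIO-LFD, 27.6 ± 11.5 in DIO-HFD and 26.0 ± 7.37 in DIO-VSG (SD, n = 4), and DIO-LFD differed from DIO-HFD by 0.91 (SE 0.37, limma adjusted p = 0.53). In the same comparison Il23a, a subunit of interleukin-23, was lower without overlap, with means of 4.996 ± 1.58 and 12.1 ± 5.02 (SD, n = 4), a difference of -1.09 (SE 0.45, limma adjusted p = 0.53). It was 1 of 23, where 1.50% of all genes were lower without overlap.

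**Figure D4:**
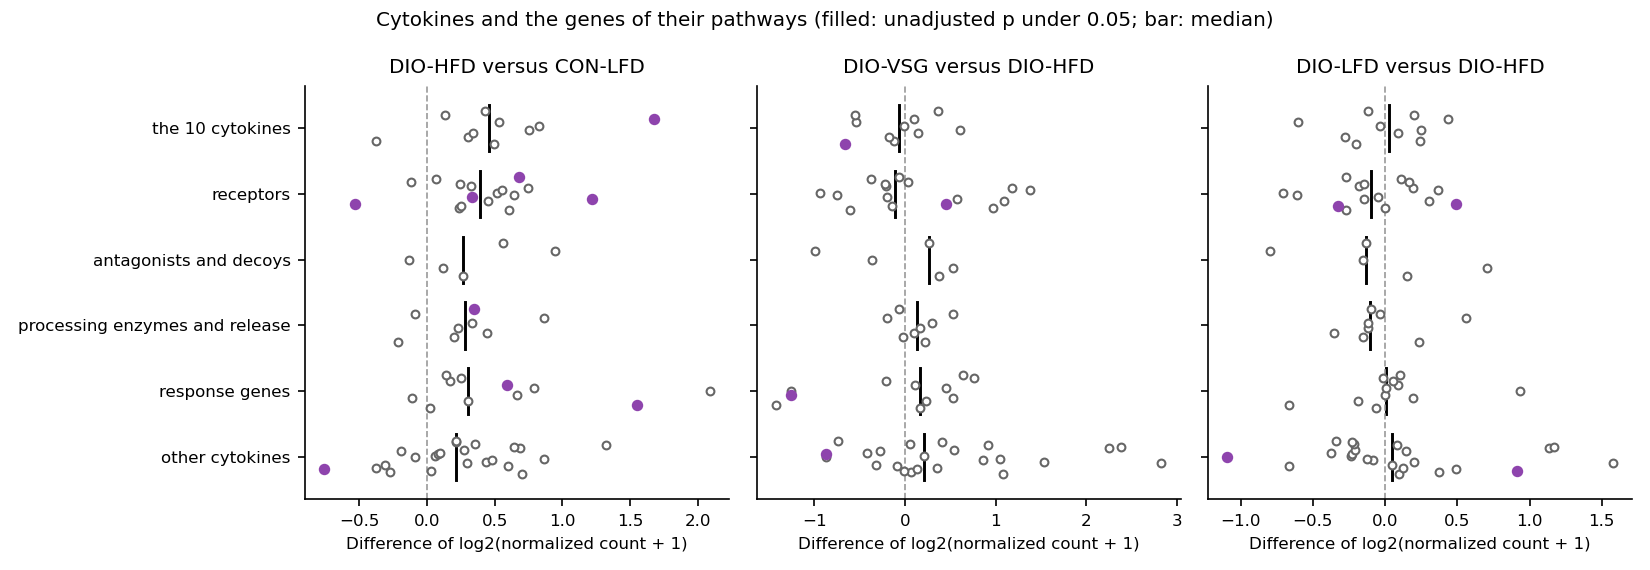
Difference of mean log2(normalized count + 1) (horizontal axis) of the 10 cytokines and of their receptors (16), antagonists (5), processing genes (8), response genes (11) and 23 other cytokines, in the 3 comparisons of DIO-HFD with the other groups; filled points have an unadjusted p under 0.05 and bars mark medians. In DIO-HFD versus CON-LFD the medians of the 6 lists lie between 0.21 and 0.46, and in the others between -0.13 and 0.27.

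The positions of the members in GRCm38 (GENCODE M21) were, for Il6, chr5:30013114-30019981 on the plus strand, for Il1b, chr2:129364570-129371139, and for Il1a, chr2:129299610-129309972, these last being neighbours on the minus strand. Tnf lay at chr17:35199381-35202007 and Csf1 at chr3:107741048-107760469, both on the minus strand, and Lif at chr11:4257557-4272514 on the plus strand. Il10 was at chr1:131019845-131024974, Il18 at chr9:50554827-50581840 and Il33 at chr19:29925114-29960718, all on the plus strand, and Il15 at chr8:82331632-82403222 on the minus strand. All 10 are protein coding, and levels were summed over each whole gene.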

How the data were processed

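RNA from contralateral mammary fat of 16 mice, 4 per group by the labels, was sequenced as stranded total RNA (paired-end). The study's methods and the submitters' processing notes both name the mouse genome mm10 (GRCm38), but the former name STAR and salmon with removal of genes under 10 counts and the latter TopHat2 2.0.7 and HTSeq 0.5.3p9. Which of these tools made the table could not be settled. The authors deposited variance-stabilized values from DESeq2, on a log2 scale, 23179 genes with a shared minimum of 5.36.

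The transformation was inverted to normalized counts, of which 100% were whole reads (tolerance 0.02), giving 46907377 to 57610899 reads per library. limma 3.58.1 (trend, R 4.3.3) was fitted to log2(normalized count + 1) of all 16 libraries by group, over the 21218 genes that reached 10 normalized counts in 4 or more libraries. P-values were two-sided, Benjamini-Hochberg adjusted over all genes tested with a threshold of 0.05, and measure the spread between these mice. The 6 comparisons share groups. The code was tested on simulated data.

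Members and gene lists were chosen with earlier results of these data known. Named list genes were the 3 smallest p-values per list and comparison, and ligand partners, and other list genes without overlap were named after their values were seen. Alternatives were pseudocounts of 0.5 and 5, no filter, quantile normalization, the deposited scale, limma-voom on recovered reads, library weights, a replicate block, a B cell score, the 8 libraries compared, and each library left out. A macrophage score, a neutrophil score and leaving out the 4 lymphoid-poor libraries were chosen after seeing the data.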

Additional observations from a re-analysis of the deposited data

Results flagged for a closer look

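Il10 in CON-LFD replicate 4 had a normalized count of 268, beside 3.18 to 23.98 in the other CON-LFD libraries, a gap to the next library of 0.922 of the group's range, above Dixon's 95% critical value for 4 samples. It was 1 of 40 groups of 4 examined, and chance marks about 1 in 20. The same library had the highest summed macrophage markers, 143059, and its Adgre1 level was 18530.3 beside 569 to 2914 elsewhere, and the part of these cells in the value was not tested.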

How the results depend on the processing

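With 4 libraries a group, 0 of 10 members passed the adjusted threshold in any comparison, with each library left out (0 to 0) and under all but 1 of the other alternatives. With limma's library weights, 3 passed in DIO-HFD versus CON-LFD (Il6 1.99, adjusted p = 0.0234; Il1a 1.11, adjusted p = 0.046; Il15 0.38, adjusted p = 0.0336), 1 in DIO-VSG versus DIO-HFD (Csf1 -0.62, adjusted p = 0.0289) and 2 in DIO-VSG versus CON-LFD (Il6 2.41, adjusted p = 0.0192; Il1a 1.21, adjusted p = 0.0488). All genes called then numbered 4196, 3739 and 4226, beside 8, 0 and 0 without weights. Over all alternatives the genes called ranged from 0 to 4196 (DIO-HFD versus CON-LFD), 3739 (DIO-VSG versus DIO-HFD), 1811 (DIO-LFD versus DIO-HFD), 1533 (DIO-VSG versus DIO-LFD, only the 8 libraries compared), 4226 (DIO-VSG versus CON-LFD) and 53 (DIO-LFD versus CON-LFD). Which weighting is closer to the truth was not tested.

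Signs are compared for differences larger than their SE, 24 of 60. Of these, 20 kept their sign under all 29 alternatives. The other 36, smaller than their SE, changed sign in 101 values under alternatives, of 1740 values for all 60. With the B cell score, Il1a in DIO-VSG versus DIO-HFD was -0.19, and in DIO-VSG versus CON-LFD Tnf was -0.21 and Il18 -0.087. With the neutrophil score Il1b in DIO-VSG versus CON-LFD was -0.22. Without the 4 lymphoid-poor libraries Il1a in DIO-VSG versus DIO-HFD was -0.31, and the cause was not tested. With each library left out, Il6 ranged over 1.15 to 1.95 in DIO-HFD, 1.26 to 2.10 in DIO-VSG and 1.59 to 2.42 in DIO-LFD relative to CON-LFD, lowest without CON-LFD replicate 1. Over the other alternatives these were 0.35 to 2.23, 0.39 to 2.58 and 0.48 to 2.91, lowest on the deposited variance-stabilized scale, which shrinks differences of low counts, and highest without the lymphoid-poor libraries. With each library left out, Il1a in DIO-VSG relative to CON-LFD ranged over 0.90 to 1.85, Csf1 in DIO-VSG versus DIO-HFD over -0.78 to -0.56 and Lif in DIO-VSG versus DIO-LFD over -1.04 to -0.60, and over the other alternatives 0.14 to 1.37, -0.77 to -0.39 and -0.91 to -0.57.

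Replicate numbers only name the libraries: same-numbered libraries deviated with correlations of -0.61 to 0.53 (median 0.02), others -0.63 to 0.74. With the replicate number as a block, 0 members passed in any comparison, the genes called in DIO-HFD versus CON-LFD numbered 1 in place of 8, and Il6 there had an adjusted p = 0.344 in limma.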
